A study of Mus musculus with 24 samples.

Results

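Acute phase proteins are released by liver and by inflamed tissue, and complement proteins mark microbes for clearance. Here 10 genes of these systems were followed by symbol through the deposited read counts of mouse embryonic fibroblasts (MEFs): Lcn2, Saa3, Serpina3n, Cp, Ptx3, Steap4, C3, C4b, Cfb and Serping1. All 10 were found among 45706 gene entries, and 9 had enough reads to be tested, all but Cfb. The cells came from male C57BL/6 embryos of day 13.5 with head and inner organs removed, and were grown for 7 days. Per the labels, the tested genotype was GR Zn/Zn, called GR mutant below, and its comparison was wild type. The allele alters a zinc finger of the glucocorticoid receptor (GR), the part of the protein that contacts DNA. Cells of each genotype received dexamethasone (Dex, a synthetic glucocorticoid, 1 uM for 16 h) with lipopolysaccharide (LPS, a bacterial cell wall component, 100 ng/ul for 6 h), LPS with ethanol, Dex alone, or ethanol vehicle alone. Each of the 8 groups had 3 libraries, and all cells shared the strain, the culture time and the ethanol. Nothing in the labels states whether the 3 libraries of a group came from different embryos, so the tests measure the spread among libraries, possibly technical. Likewise, genotype and the embryos it came from cannot be told apart.

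In inflamed tissue the cytokines IL-1 and TNF, acting through NF-kB, and IL-6, acting through STAT3 and C/EBP factors, switch on acute phase genes. Glucocorticoids are known to repress many inflammatory genes and yet to raise several acute phase genes in liver cells. GR does so as a ligand-bound transcription factor that binds DNA at glucocorticoid response elements and also contacts other factors.

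LPS raised 7 of the 9 tested members in wild-type cells, where 14.0% of all genes were called higher, and 8 in mutant cells, where 19.0% were. Dex raised Lcn2, Serpina3n, Cp and Ptx3 in wild-type cells without LPS, where 7.92% of all genes were called higher. In the presence of LPS it raised these 4 and Saa3, where 10.5% of all genes were called higher. Without LPS Saa3 had 12 reads with Dex and 2 in vehicle, and its rise was not called. The largest effects of Dex under LPS were on Serpina3n, 14.0-fold higher, and on Lcn2, 7.79-fold higher. None of the 9 was called for Dex in mutant cells, with or without LPS. Of all genes, 0.0% were called there without LPS and 0.00657% under LPS. By a direct test the Dex effect was called lower in the mutant for 3 members without LPS, against 4.4% of all genes. Under LPS it was called lower for 5 members, against 5.03% of all genes. C4b and Cfb stayed at or below 2.28 CPM (depth-scaled counts) in every library.

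The promoters of 5 members are shown, and not all that were found. These 5 genes were called higher with LPS in both genotypes. Of them 4 were also called higher with Dex under LPS in wild type, and Steap4 was not. Cp passed the same tests as those 4, and its 2 promoters are not printed. RefSeq promoter sequences of build GRCm38.p6, from 250 bases before the start of transcription to 50 after it, were found for 7 of the 10 members and read 5′ to 3′ on the gene's strand. Capitals mark matches, on either strand, to 4 motifs: TTGCNNAA of C/EBP factors, GGG and CC with 5 bases of any kind between them for NF-kB, TTCNNNGAA of STAT factors and AGAACA, a GR half-site. The regions are chr2:32387690-32387989 (minus strand) for Lcn2, chr7:46715627-46715926 (minus strand) for Saa3, chr12:104406458-104406757 (plus strand) for Serpina3n, chr3:66219637-66219936 (plus strand) for Ptx3 and chr5:7960222-7960521 (plus strand) for Steap4.
Lcn2: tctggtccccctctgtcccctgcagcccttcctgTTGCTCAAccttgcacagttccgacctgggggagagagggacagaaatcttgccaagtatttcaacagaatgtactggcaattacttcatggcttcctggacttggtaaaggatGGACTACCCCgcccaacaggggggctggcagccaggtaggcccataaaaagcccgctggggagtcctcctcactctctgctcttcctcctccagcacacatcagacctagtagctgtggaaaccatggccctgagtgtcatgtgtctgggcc
Saa3: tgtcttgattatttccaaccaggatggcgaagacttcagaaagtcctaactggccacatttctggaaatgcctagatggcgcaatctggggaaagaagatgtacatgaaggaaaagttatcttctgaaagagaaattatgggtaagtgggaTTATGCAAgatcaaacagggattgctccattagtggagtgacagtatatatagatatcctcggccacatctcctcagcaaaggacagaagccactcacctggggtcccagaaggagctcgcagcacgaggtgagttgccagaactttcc
Serpina3n: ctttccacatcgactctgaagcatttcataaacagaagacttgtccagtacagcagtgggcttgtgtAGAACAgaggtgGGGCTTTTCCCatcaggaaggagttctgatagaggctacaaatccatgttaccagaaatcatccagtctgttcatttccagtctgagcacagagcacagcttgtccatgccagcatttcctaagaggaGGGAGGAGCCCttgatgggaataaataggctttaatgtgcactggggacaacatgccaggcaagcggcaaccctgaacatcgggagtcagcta
Ptx3: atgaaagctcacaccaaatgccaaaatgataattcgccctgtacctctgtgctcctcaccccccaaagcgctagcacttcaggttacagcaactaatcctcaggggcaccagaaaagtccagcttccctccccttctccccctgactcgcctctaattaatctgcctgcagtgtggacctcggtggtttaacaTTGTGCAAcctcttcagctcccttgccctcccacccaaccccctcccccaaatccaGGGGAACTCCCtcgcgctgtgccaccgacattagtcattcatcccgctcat
Steap4: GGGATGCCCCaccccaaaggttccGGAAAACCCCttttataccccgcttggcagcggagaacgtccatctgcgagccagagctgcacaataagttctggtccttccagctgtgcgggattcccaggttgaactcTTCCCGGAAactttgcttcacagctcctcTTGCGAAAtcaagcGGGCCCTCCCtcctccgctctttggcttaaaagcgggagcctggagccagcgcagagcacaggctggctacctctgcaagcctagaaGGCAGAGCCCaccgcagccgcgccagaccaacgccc
The C/EBP letters were in the promoters of 6 of the 7 members, all but Serpina3n, and in 10.8% of all 32851 promoters of this length. The NF-kB letters were in 6 of 7, all but Saa3, and in 50.8% of all promoters. For Cp both motifs were in the same 1 of its 2 promoters, while the shares of all promoters count single promoters. The GR half-site letters were in the Serpina3n promoter and in 1 of 2 promoters of Cp, and in 19.0% of all promoters. The STAT letters were in the Steap4 promoter alone among the 7 and in 8.30% of all promoters. In Serpina3n the half-site lay at position -183 and an overlapping pair of NF-kB matches at -171 and -170, counting the start of transcription as 0. In Ptx3 the NF-kB matches overlapped the start itself, at -1 and 0, and the C/EBP match lay at -57. These are matches of letters and not measured sites of binding.

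Levels are counts scaled to the depth of each library and adjusted between libraries by the TMM method (CPM, reads per 1 M counted) and given per library or as mean ± SD with n = 3. Fold changes are ratios of these means, and log2 fold changes with standard error (SE) come from edgeR's quasi-likelihood fit over 15221 genes. Called means an adjusted p below 0.05 there, by the Benjamini-Hochberg method. Counted reads numbered 18.9 to 25.5 M in each of 21 libraries, and 43.9 to 58.0 M in each of 3 with later library numbers. These 3 are Dex and LPS replicate 3 in wild type, and vehicle replicate 1 and LPS replicate 2 in the mutant. A count of 0 allows up to 3 reads, or 0.0518 to 0.159 CPM per library. Such limits and intervals cover counting error only.

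**Figure D1:**
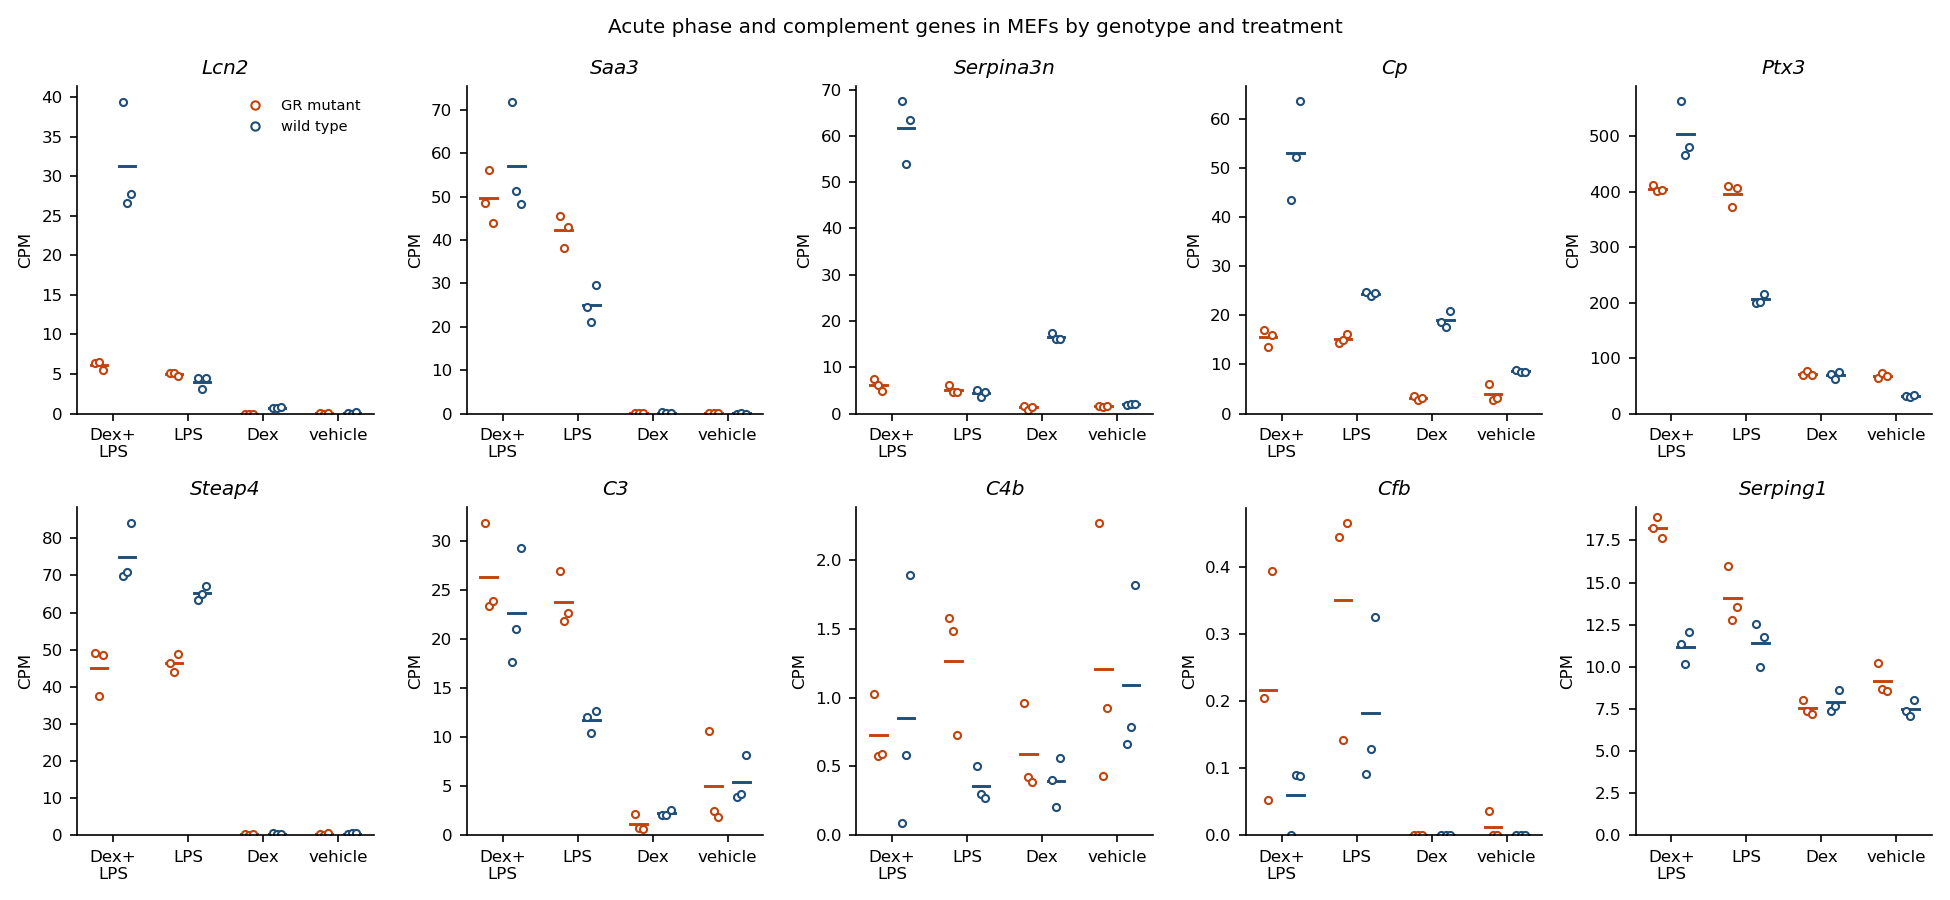
CPM of the 10 members (vertical axes, linear from 0, 1 scale per gene) in mutant (orange) and wild-type (blue) cells by treatment, with 1 circle per library and a line at the mean of 3. Serpina3n stood at 54.0 CPM or more in wild-type cells with Dex and LPS and at 7.43 CPM or less in mutant cells with Dex and LPS.

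Lcn2 (ENSMUSG00000026822, chromosome 2, 32384633 to 32388252, GRCm38) encodes lipocalin 2, a secreted protein that captures bacterial iron carriers. In wild-type cells it was at 39.4, 26.6 and 27.8 CPM with Dex and LPS, against 4.48, 3.11 and 4.46 CPM with LPS. It was at 0.643, 0.660 and 0.768 CPM with Dex, against 0.0475, 0 and 0.165 CPM in vehicle. The groups did not overlap in either pair, and the rise with Dex was 7.79-fold under LPS (log2 2.96 ± 0.17 SE, adjusted p = 5.34e-11) and 9.74-fold without it (log2 3.14 ± 0.74, adjusted p = 0.000434). The second value rests on 47 reads with Dex against 5 reads in vehicle, and was log2 4.64, still called, without vehicle replicate 3, which held 4 of the 5. In mutant cells Lcn2 was at 6.40, 6.50 and 5.47 CPM with Dex and LPS, against 5.15, 5.13 and 4.71 CPM with LPS, which did not overlap but missed the threshold (adjusted p = 0.911). Dex alone left 0 reads in all 3 mutant libraries, against 2 reads over the 3 vehicle libraries, so no fold is given. LPS raised Lcn2 56.6-fold in wild-type cells (log2 5.68, 95% interval 4.28 to 7.08, adjusted p = 4.73e-10), with log2 7.18 without the same vehicle library. In mutant cells the ratio to the 2 vehicle reads was 256, with an exact 95% counting interval of 70.3 to 2118 (adjusted p = 5.04e-12). The order of means ran from wild-type cells with Dex and LPS, at 31.3 ± 7.10 CPM, down to mutant cells with Dex, and neighbours in that order overlapped only among wild-type vehicle, mutant vehicle and mutant Dex.

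Saa3 (ENSMUSG00000040026, chromosome 7, 46711998 to 46715700) encodes a serum amyloid A protein that mouse cells outside the liver make in inflammation. It was close to silent without LPS, with 2 reads over 3 wild-type vehicle libraries and 9 over 3 mutant ones. With LPS it reached 45.6, 38.2 and 43.0 CPM in mutant cells and 24.5, 21.2 and 29.7 CPM in wild-type cells. The ratio of LPS to vehicle was 474 in mutant cells (adjusted p = 1.62e-16) and 844 in wild-type cells, with an exact 95% counting interval of 233 to 6978 (adjusted p = 8.04e-15). Both wild-type vehicle reads were in replicate 2. Against those 2 reads, Dex without LPS gave 12 reads over 3 wild-type libraries, which was not called (log2 2.39 ± 1.47, adjusted p = 0.211). The interaction of Dex and LPS on Saa3 in wild type was not called either (log2 -1.21 ± 1.48, adjusted p = 0.803). Dex with LPS gave 71.9, 51.2 and 48.2 CPM in wild-type cells, all above the 3 LPS libraries, a 2.27-fold rise over LPS (log2 1.18 ± 0.14, adjusted p = 1.06e-06). In mutant cells Dex with LPS gave 48.6, 56.2 and 43.9 CPM, which overlapped the LPS libraries (adjusted p = 0.899). Mutant and wild-type cells with Dex and LPS overlapped in level. The liver-type relatives Saa1 and Saa2 had at most 8 reads over the 3 libraries of any group. Another relative, Saa4, had up to 73, in wild-type cells with Dex and LPS, at 0, 15 and 58 reads per library.

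Serpina3n (ENSMUSG00000021091, chromosome 12, 104406729 to 104414329) encodes a secreted inhibitor of serine proteases, one of the mouse counterparts of human alpha-1-antichymotrypsin. Wild-type cells held 67.5, 54.0 and 63.4 CPM with Dex and LPS, against 5.07, 3.50 and 4.62 CPM with LPS. They held 17.5, 16.2 and 16.2 CPM with Dex, against 1.80, 1.96 and 2.15 CPM in vehicle. Every Dex library stood above every library without it, and the rise was 14.0-fold under LPS (log2 3.82 ± 0.15, adjusted p = 4.1e-14) and 8.43-fold without LPS (log2 3.07 ± 0.19, adjusted p = 1.28e-11). Mutant cells held 7.43, 6.24 and 4.83 CPM with Dex and LPS, against 6.24, 4.56 and 4.71 CPM with LPS (adjusted p = 0.924). They held 1.66, 0.843 and 1.46 CPM with Dex, against 1.66, 1.43 and 1.69 CPM in vehicle (adjusted p = 0.757). In the mutant the Dex and control libraries overlapped in both pairs. LPS alone raised Serpina3n 3.25-fold in mutant cells (log2 1.67 ± 0.19, adjusted p = 2.12e-07) and 2.23-fold in wild-type cells (log2 1.14 ± 0.21, adjusted p = 0.000146). Serpina3n lies in a cluster of near-identical genes, and reads that map to several of them were not counted, so its level is uncertain. Its relative Serpina3g was at 213 ± 8.17 CPM in mutant cells with Dex and LPS and 176 ± 5.39 CPM in mutant cells with LPS, and at 294 ± 17.0 CPM in wild-type cells with Dex and LPS and 177 ± 9.43 CPM in wild-type cells with LPS.

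Ptx3 (ENSMUSG00000027832, chromosome 3, 66219910 to 66225805) encodes pentraxin 3, a soluble pattern recognition protein that binds microbes and complement C1q. It had the highest level per length of the 10, at 188 ± 19.7 CPM per kb of exon in wild-type cells with Dex and LPS and 11.8 ± 0.554 CPM per kb in wild-type vehicle. Its levels were 564, 466 and 481 CPM in wild-type cells with Dex and LPS, against 200, 202 and 216 CPM with LPS, a 2.44-fold rise (log2 1.29 ± 0.07, adjusted p = 4.55e-12). Without LPS they were 71.1, 63.2 and 74.5 CPM with Dex, against 32.0, 29.9 and 32.7 CPM in vehicle, a 2.21-fold rise (log2 1.14 ± 0.08, adjusted p = 1.54e-10). Groups did not overlap in either pair. Mutant cells started higher: vehicle libraries were at 63.9, 72.5 and 67.7 CPM, 2.16-fold above wild-type vehicle (log2 1.11 ± 0.08, adjusted p = 2.75e-10), and overlapped the range of wild-type cells with Dex. Dex in the mutant gave 70.1, 76.1 and 69.5 CPM (adjusted p = 0.767). Under LPS the mutant was at 412, 402 and 403 CPM with Dex, against 410, 372 and 407 CPM without it (adjusted p = 0.977). LPS raised Ptx3 5.83-fold in mutant cells (log2 2.55 ± 0.07, adjusted p = 1.11e-17) and 6.54-fold in wild-type cells (log2 2.71 ± 0.07, adjusted p = 1.13e-17).

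Cp (ENSMUSG00000003617, chromosome 3, 19957054 to 20009145) encodes ceruloplasmin, a copper protein that oxidises iron. In wild-type cells it was at 43.5, 52.3 and 63.7 CPM with Dex and LPS, against 24.7, 23.9 and 24.6 CPM with LPS (2.18-fold higher, log2 1.13 ± 0.16, adjusted p = 1.43e-05). It was at 18.6, 17.7 and 20.9 CPM with Dex, against 8.83, 8.55 and 8.47 CPM in vehicle (2.21-fold higher, log2 1.14 ± 0.18, adjusted p = 7.95e-05). Wild-type Dex, LPS and their combination formed 3 ascending steps above vehicle with no overlap between libraries. In mutant cells Cp was at 17.0, 13.5 and 16.0 CPM with Dex and LPS, against 14.3, 15.0 and 16.2 CPM with LPS (adjusted p = 0.997). Without LPS it was at 3.54, 2.70 and 3.17 CPM with Dex, against 6.00, 2.71 and 3.21 CPM in vehicle (adjusted p = 0.675). Mutant vehicle libraries all stood below wild-type vehicle (2.17-fold lower, 95% interval of the log2 change -1.40 to -0.61, adjusted p = 0.00078). LPS raised Cp 3.82-fold in mutant cells (log2 1.82 ± 0.19, adjusted p = 8.32e-08) and 2.83-fold in wild-type cells (log2 1.50 ± 0.18, adjusted p = 9.47e-07). The mutant vehicle library at 6.00 CPM was the one with the most Alb RNA of its group. With 1 of the compared libraries left out, the LPS effect on Cp in the mutant was log2 1.61 to 2.34. The vehicle difference, mutant minus wild type, was then log2 -1.53 to -0.80. Both were called each time.

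Steap4 (ENSMUSG00000012428, chromosome 5, 7960457 to 7982213) encodes a membrane metalloreductase that reduces iron and copper. It moved with LPS and was not called for Dex in any comparison. With LPS it was at 46.5, 43.8 and 48.9 CPM in mutant cells, against 0.406, 0.0951 and 0.506 CPM in mutant vehicle, a 138-fold rise (log2 6.98 ± 0.30, adjusted p = 1.39e-17). In wild-type cells it was at 63.5, 65.1 and 67.2 CPM with LPS, against 0.285, 0.436 and 0.413 CPM in vehicle, a 173-fold rise (log2 7.40 ± 0.35, adjusted p = 1.49e-17). Wild-type cells with Dex and LPS held 69.9, 70.9 and 84.1 CPM, above each LPS library, but the difference did not pass the test (adjusted p = 0.223). In the mutant the libraries with Dex and LPS, at 49.1, 37.5 and 48.7 CPM, overlapped those with LPS.

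C3 (ENSMUSG00000024164, chromosome 17, 57203970 to 57228136) encodes the central complement component on which all activation routes converge. With LPS it was at 26.9, 21.8 and 22.6 CPM in mutant cells, against 10.6, 2.47 and 1.86 CPM in mutant vehicle (4.77-fold higher, log2 2.06 ± 0.41, adjusted p = 0.000433). In wild-type cells it was at 12.0, 10.4 and 12.7 CPM with LPS, against 3.84, 4.15 and 8.18 CPM in vehicle, which did not overlap but missed the threshold (log2 1.10 ± 0.45, adjusted p = 0.0788). Dex in wild-type cells went with less C3 in the absence of LPS, at 2.09, 2.06 and 2.56 CPM, and with more of it under LPS, at 17.6, 21.0 and 29.2 CPM. Neither difference was called (log2 -1.29 ± 0.56, adjusted p = 0.149, without LPS; log2 0.97 ± 0.39, adjusted p = 0.0872, under LPS), nor was the interaction of Dex and LPS (log2 2.26 ± 0.68, adjusted p = 0.126). In mutant cells C3 was at 2.10, 0.717 and 0.643 CPM with Dex (log2 -2.30 ± 0.65, adjusted p = 0.675 against vehicle). Under LPS the mutant was at 31.8, 23.3 and 23.9 CPM with Dex (adjusted p = 0.986 against LPS alone). The mutant values of C3 depended on vehicle replicate 1, the library at 10.6 CPM. Without it the LPS effect in the mutant was log2 3.45 ± 0.39 (adjusted p = 1.96e-07), the Dex effect in the mutant was log2 -0.90 ± 0.50 (adjusted p = 1.0), and mutant vehicle was called lower than wild-type vehicle (log2 -1.33 ± 0.41, adjusted p = 0.0253). Without all 3 libraries with later numbers the interaction was called (log2 2.03 ± 0.43, adjusted p = 0.0155), as it was with only the compared libraries. None of the fits that left out 1 of the compared libraries called it. The LPS effect in wild type was called without the same 3 libraries at nearly the same size (log2 1.09 ± 0.26, adjusted p = 0.00394), and without vehicle replicate 3 of wild type (log2 1.54, adjusted p = 0.0450).

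Serping1 (ENSMUSG00000023224, chromosome 2, 84765387 to 84775444) encodes the C1 inhibitor, which blocks the first proteases of the classical complement route. LPS raised it modestly, to 16.0, 12.8 and 13.6 CPM in mutant cells, against 10.2, 8.65 and 8.56 CPM in mutant vehicle (1.54-fold, log2 0.61 ± 0.10, adjusted p = 4.03e-05). In wild-type cells it was at 12.5, 9.98 and 11.7 CPM with LPS, against 7.36, 7.07 and 8.02 CPM in vehicle (1.53-fold, log2 0.61 ± 0.11, adjusted p = 0.000141). Dex gave no called change in either genotype. Mutant cells with Dex and LPS held 18.2, 18.9 and 17.6 CPM, above every other library, yet the difference from mutant cells with LPS missed the threshold (log2 0.38 ± 0.10, adjusted p = 0.267).

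C4b (ENSMUSG00000073418, chromosome 17, 34728380 to 34743882), the complement component C4, was low in all groups, with means between 1.26 ± 0.469 CPM in mutant cells with LPS and 0.358 ± 0.126 CPM in wild-type cells with LPS. No comparison called it over all 24 libraries, and all neighbouring groups in its order overlapped. In wild type it was called lower with Dex without the 5 libraries named below (log2 -1.53 ± 0.51, adjusted p = 0.0195), and lower with LPS without those 5 (log2 -1.60 ± 0.53, adjusted p = 0.0116) or without the 3 with later numbers (adjusted p = 0.0331). Both were also called when only the compared libraries were fitted. With Alb as a covariate the log2 changes were -0.72 ± 0.49 for Dex and -0.54 ± 0.51 for LPS, neither called (adjusted p = 0.427 for Dex and 0.484 for LPS). Its levels were 0.731 ± 0.255 CPM in mutant cells with Dex and LPS and 0.855 ± 0.933 CPM in wild-type cells with Dex and LPS. C4a, a near-identical paralog that can split its reads, was at 0.862 ± 0.193 and 0.836 ± 0.0457 CPM in the same order of groups. Cfb (ENSMUSG00000090231, chromosome 17, 34856374 to 34862518), factor B of the alternative route, had 0 reads in both groups with Dex alone and in wild-type vehicle. LPS gave 11, 6 and 9 reads in mutant cells, against 2, 0 and 0 in mutant vehicle, and 2, 3 and 6 reads in wild-type cells. Dex with LPS gave 4, 1 and 8 reads in mutant cells and 0, 2 and 5 in wild-type cells. Mean levels were lower than with LPS, at 0.217 against 0.351 CPM in mutant cells and 0.0594 against 0.182 CPM in wild-type cells. The wild-type groups did not overlap, and edgeR with no filter on low counts called neither difference. DESeq2, and edgeR with no filter on low counts, called Cfb higher with LPS in both genotypes (DESeq2 adjusted p = 0.0143 in the mutant and 0.0267 in wild type). The wild-type value is at least 3.92-fold above vehicle, where 3 reads over the group are the floor. The ratio in mutant cells was 15.3, with an exact 95% counting interval of 3.83 to 133. Of the 2825 exon bases of Cfb, 79.5% overlap the readthrough gene Gm20547 on the same strand, and reads in such overlaps are ambiguous and not counted, so its level is a lower limit. Gm20547 itself had 0 reads.

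Against the background of all genes, 7 of 9 tested members were higher with LPS in wild type, where 14.0% of 15221 genes were called higher, and 8 of 9 in the mutant, where 19.0% were. Dex without LPS called 4 of 9 higher in wild type, against 7.92% of genes. Dex under LPS called 5 of 9 higher in wild type, against 10.5% of genes. In the mutant edgeR called 0 of 9 members for Dex, against 0.0% of genes, and 0 of 9 for Dex under LPS, against 0.00657% of genes. At an unadjusted p below 0.05 these mutant counts were 2 for Dex, where 7.29% of all genes were below it, and 1 for Dex under LPS, where 5.84% were. DESeq2 called 0 members in both. The median log2 fold change of the 9 was 1.14 with Dex and 1.18 with Dex under LPS in wild type, where the medians of all tested genes were 0.00 and 0.01. The comparisons within a genotype share control libraries, so they are not independent of each other.

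**Figure D2:**
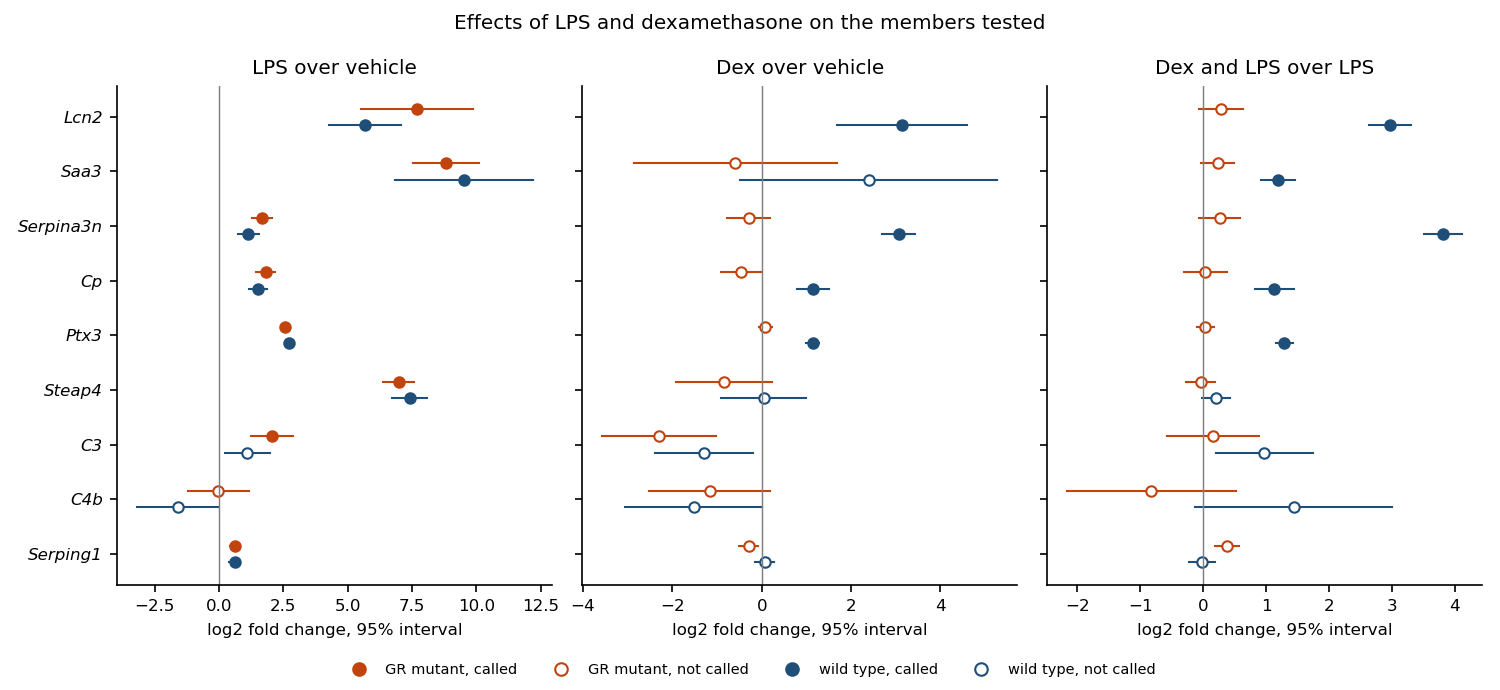
Log2 fold changes with 95% intervals (horizontal axes) of the 9 tested members for LPS over vehicle, Dex over vehicle, and Dex with LPS over LPS, in mutant (orange) and wild-type (blue) cells; filled circles were called. Lcn2 for Dex over vehicle in the mutant is not drawn, since all 3 Dex libraries had 0 reads. The wild-type points of Serpina3n and Lcn2 stood farthest to the right in the Dex panels.

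The genotypes were compared directly by the difference of their effects, mutant minus wild type. For Dex without LPS the difference was called for 3 of 9 members, all lower, where 4.4% of all genes were lower. These were Serpina3n (log2 -3.36 ± 0.31, 95% interval -3.96 to -2.75, adjusted p = 5.33e-08), Cp (log2 -1.60 ± 0.29, adjusted p = 0.000805) and Ptx3 (log2 -1.06 ± 0.10, adjusted p = 2.47e-07). With 1 of the compared libraries left out, the Cp difference was log2 -1.79 to -1.06 and was called each time. The difference for Lcn2 was not called (adjusted p = 0.169), with 0 reads in the mutant Dex libraries. Under LPS it was called for 5 of 9, all lower, against 5.03% of all genes. Serpina3n again differed most (log2 -3.56 ± 0.23, 95% interval -4.00 to -3.11, adjusted p = 1.8e-10), before Lcn2 (log2 -2.68 ± 0.25, adjusted p = 1.35e-07), Ptx3 (log2 -1.26 ± 0.10, adjusted p = 4.37e-09), Cp (log2 -1.10 ± 0.23, adjusted p = 0.00267) and Saa3 (log2 -0.95 ± 0.19, adjusted p = 0.00165). Steap4 was not called (adjusted p = 0.442). An earlier look at these data set 5 libraries apart: Dex and LPS replicates 1 and 3 of wild type, and vehicle replicate 1, LPS replicate 2 and Dex and LPS replicate 2 of the mutant. Leaving those 5 out keeps 1 wild-type library with Dex and LPS, so comparisons with that group are given by effect size only. The difference under LPS was then -3.46 for Serpina3n, -2.45 for Lcn2, -1.16 for Ptx3, and -0.95 for both Cp and Saa3, on the log2 scale. Serping1 had a difference in the opposite direction that missed the threshold over all libraries (log2 0.39 ± 0.14, adjusted p = 0.0856). Without those 5 libraries the Serping1 difference was log2 0.46. It was called without LPS replicate 1 of the mutant (log2 0.52, adjusted p = 0.0236), without LPS replicate 2 of wild type (log2 0.51, adjusted p = 0.0322) and without Dex and LPS replicate 3 of wild type (log2 0.46, adjusted p = 0.0461).

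The effect of LPS itself was not called as different between genotypes for any member by edgeR, where 0.539% of genes were called in either direction. No member was at an unadjusted p below 0.05, where 8.78% of all genes were, and DESeq2 called 0. Without the 3 libraries with later numbers 2 members were called, C3 (log2 2.44 ± 0.48, adjusted p = 0.0239) and Cp, and without vehicle replicate 1 of the mutant C3 was called (log2 2.35, adjusted p = 0.0320). The interaction of Dex and LPS within wild type was called for 0 of 9 members by edgeR and by DESeq2, against 1.56% of genes, and 3 members were at an unadjusted p below 0.05, where 10.3% of all genes were. Those were C3, Serpina3n (log2 0.75 ± 0.24, adjusted p = 0.191) and C4b (log2 2.95 ± 1.12, adjusted p = 0.253). In vehicle, 2 of 9 members differed between mutant and wild type, Ptx3 higher and Cp lower, against 18.8% of all genes called in either direction. Serping1 stood close to the threshold (log2 0.30 ± 0.11, adjusted p = 0.0501), and several other settings called it.

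Alb, which encodes serum albumin, served as a check on liver-type RNA, since liver makes most of these proteins. Alb ranged from 0 to 152 CPM over the libraries, and the 3 libraries with later numbers had the most Alb of their groups, at 133 and 86.5 CPM in the mutant and 152 CPM in wild type. Among members C4b went with it most closely. The library with the most Alb also had the most C4b in 4 of 8 groups, and the one with the least Alb had the least C4b in 5 of 8. In wild-type cells with Dex and LPS, C4b was at 0.0889, 0.582 and 1.89 CPM where Alb was at 0, 29.4 and 152 CPM. For C3 the most Alb went with the most C3 in 4 of 8 groups and the least with the least in 2, and for Serping1 in 4 and 0. With 3 libraries per group, some such matches arise without any link. Pearson's r with Alb, of log2 CPM less the group mean, was 0.75 for C4b, 0.50 for C3 and 0.48 for Cp. It was -0.64 for Ptx3, -0.43 for Saa3, and -0.21 to 0.14 for the other tested members. Over the 15220 tested genes other than Alb, the 5th and 95th percentiles of r were -0.53 and 0.55. In the 3 wild-type libraries with Dex and LPS, in the same order of Alb, Cp was at 43.5, 52.3 and 63.7 CPM. Serpina3n was at 67.5, 54.0 and 63.4 CPM in those libraries, and the library with no Alb read held the most. With the Alb level of each library as a covariate, the Dex effect under LPS in wild type was 3.83 ± 0.15 for Serpina3n, 3.01 ± 0.14 for Lcn2, 1.25 ± 0.09 for Saa3, 1.31 ± 0.06 for Ptx3 and 1.05 ± 0.13 for Cp on the log2 scale, all called. The same fit moved the interaction of Dex and LPS on C4b to 1.31 ± 0.74 (adjusted p = 0.461).

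**Figure D3:**
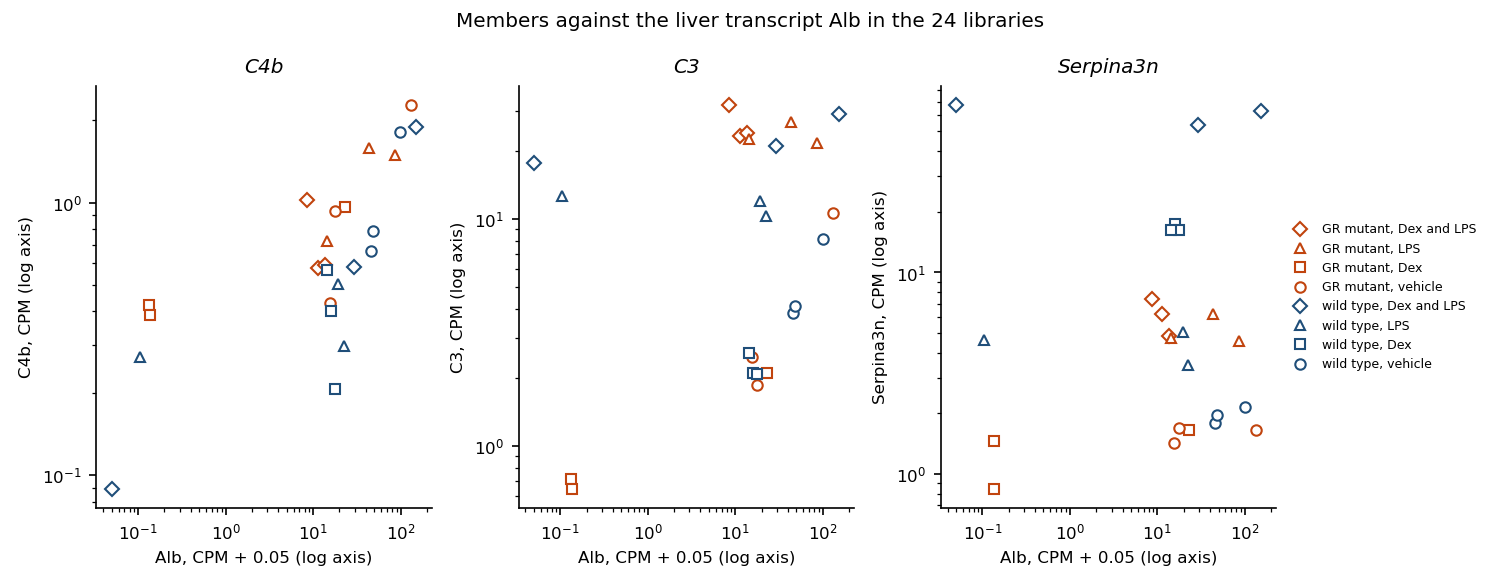
CPM of C4b, C3 and Serpina3n (vertical log axes) against Alb CPM + 0.05 (horizontal log axes) in the 24 libraries, with orange for mutant, blue for wild type and 1 symbol per treatment. C4b ranged from 0.0889 CPM in the library with no Alb read to 2.28 CPM at 133 CPM of Alb, while Serpina3n in wild-type cells with Dex and LPS stayed between 54.0 and 67.5 CPM.

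Marker lists of 6 cell types were summed in each library. The 10 fibroblast markers summed to 18805 to 27408 CPM over the mutant libraries and 16337 to 20985 CPM over the wild-type libraries, ranges that overlapped. In vehicle 7 of these 10 were called higher in the mutant, where 8.69% of all genes were. The part of fibroblast RNA in the genotype differences was not tested. The 15 liver markers summed to 1.11 to 234 CPM. The 10 macrophage and leukocyte markers summed to 183 to 214 CPM over the 12 mutant libraries. Over the 12 wild-type libraries they summed to 67.5 to 95.2 CPM. In vehicle 9 of these 10 were called higher in the mutant, against the same 8.69% of all genes. Their part in the genotype difference of Ptx3 in vehicle was not tested. In wild-type cells the sum was 67.5 to 76.3 CPM with Dex and 89.4 to 91.6 CPM in vehicle, and 86.8 to 95.2 CPM with Dex and LPS, against 91.6 to 93.3 CPM with LPS. The 9 neutrophil markers summed to 1.08 CPM at most, with S100a9 and Ngp at 0 in all libraries. Neutrophils are a known source of Lcn2. The neutrophil sum was 0.709 to 0.984 CPM with LPS and 0.0844 to 0.229 CPM in vehicle in the mutant, and 0.299 to 0.761 CPM with LPS and 0.165 to 0.617 CPM in vehicle in wild type. Camp, the one neutrophil marker tested, was called higher with LPS in both genotypes, and its part in the LPS effect on Lcn2 was not tested. The 6 endothelium markers summed to 7.25 to 12.9 CPM over the mutant libraries and 21.2 to 36.4 CPM over the wild-type libraries, and in wild type to 33.0 to 36.4 CPM with Dex and 27.2 to 28.6 CPM in vehicle. The 6 epithelium markers summed to 14.7 to 22.5 CPM over the mutant libraries and 24.4 to 42.9 CPM over the wild-type libraries. Neither sum overlapped between the genotypes, and their part in the genotype differences was not tested. In bulk RNA, fewer cells of a type and less RNA per cell cannot be told apart.

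Other genes of the same systems were followed in 4 lists. Of 28 other acute phase genes 22 were tested, and Dex under LPS in wild type called 5 higher and 2 lower, where 10.5% of all genes were called higher and 10.6% lower, with none called in the mutant. The metallothioneins Mt2 and Mt1, which bind zinc and copper, had the largest changes of the 5. Mt2 was at 682 ± 229 CPM with Dex and LPS, against 111 ± 8.19 CPM with LPS, in wild-type cells (log2 2.62 ± 0.19, adjusted p = 3.52e-09), and at 201 ± 33.1 CPM against 186 ± 8.97 CPM in mutant cells. Mt1 had a log2 change of 2.25 ± 0.22 (adjusted p = 2.9e-07), Hp, the haemoglobin-binding haptoglobin, 1.24 ± 0.40 (adjusted p = 0.0314), and Lbp, which hands LPS to its receptor, 0.84 ± 0.18 (adjusted p = 0.0011). The 15 liver markers summed to 2.04 to 234 CPM with Dex and LPS and to 2.61 to 35.6 CPM with LPS in those wild-type libraries, and the median log2 change of the 13 tested was 2.02 with 0 called. Their part in these acute phase calls was not tested. Without LPS, Dex in wild type called 6 of the 22 higher and 1 lower, where 7.92% of all genes were called higher and 5.24% lower. LPS called 9 of the 22 higher in mutant cells, against 19.0% of all genes, and 7 higher in wild-type cells, against 14.0%, and none lower in either.

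Of 16 tested other complement components, LPS called 2 higher and 2 lower in mutant cells, where 19.0% of all genes were called higher and 17.7% lower. In wild-type cells it called 2 higher and 5 lower, where 14.0% of all genes were called higher and 12.4% lower. The proteases of the first complement complex were the 2 that rose: C1ra was at 9.09 ± 1.73 CPM with LPS and 5.66 ± 1.15 CPM in vehicle in the mutant, and at 6.23 ± 0.366 CPM with LPS and 4.13 ± 0.456 CPM in vehicle in wild type. Its partner C1s1 had a log2 change of 0.65 ± 0.17 in mutant cells and 0.68 ± 0.19 in wild-type cells. Dex without LPS called none of the 16 in either genotype, and under LPS it called 4 higher in wild type, against 10.5% of all genes, C8g, C1qa, C1qb and Colec12. C1qa and C1qb are made chiefly by macrophages. Of 18 tested regulators and receptors, Dex under LPS in wild type called 3 higher and 2 lower, where 10.5% of all genes were called higher and 10.6% lower. Among the 3 was Cd59a, a membrane inhibitor of the lytic complex, at 53.2 ± 2.65 CPM with Dex and LPS and 39.6 ± 1.60 CPM with LPS. In vehicle Cd59a was at 16.6 ± 0.0570 CPM in mutant cells and 42.4 ± 1.56 CPM in wild-type cells (log2 -1.35 ± 0.07, adjusted p = 3.72e-12).

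The genes that control the acute phase were more often lower than higher with Dex under LPS in wild type. Of 28 tested genes of IL-6 and C/EBP control, LPS called 22 higher and 2 lower in mutant cells and 19 higher and 2 lower in wild-type cells, against 19.0% of all genes higher in mutant cells and 14.0% higher in wild-type cells. Dex under LPS in wild-type cells called 13 lower and 4 higher, where 10.6% of all genes were called lower and 10.5% higher, and in mutant cells none. The cytokine Il6 was at 11.0 ± 1.37 CPM with Dex and LPS, against 49.9 ± 3.29 CPM with LPS, in wild-type cells (log2 -2.17 ± 0.10, adjusted p = 2.48e-13), and at 57.6 ± 1.92 CPM against 55.5 ± 4.28 CPM in mutant cells. Il1b was at 5.84 ± 0.798 CPM with Dex and LPS, against 36.4 ± 0.461 CPM with LPS, in wild-type cells (log2 -2.62 ± 0.12, adjusted p = 1.66e-12). Il1a (log2 -2.26 ± 0.12) and Tnf (log2 -1.69 ± 0.08) fell in the same comparison. In those wild-type libraries Lcn2, Saa3, Serpina3n, Cp and Ptx3 rose while the cytokine genes that drive the acute phase fell. The direct difference between genotypes was called for Il6 (log2 2.22 ± 0.13, adjusted p = 6.5e-11) and Il1b (log2 2.68 ± 0.16, adjusted p = 1.93e-10), in the opposite direction to the members. Without LPS, Dex in wild type called 6 of the 28 control genes higher and 5 lower, against 7.92% of all genes higher and 5.24% lower. Among the 6 was Cebpd, a C/EBP factor of the acute phase, at 9.29 ± 0.208 CPM with Dex and 4.37 ± 0.330 CPM in vehicle (log2 1.08 ± 0.29, adjusted p = 0.0125). Cebpd was not called for Dex under LPS in wild type, nor for the genotype difference of the Dex effect with or without LPS.

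**Figure D4:**
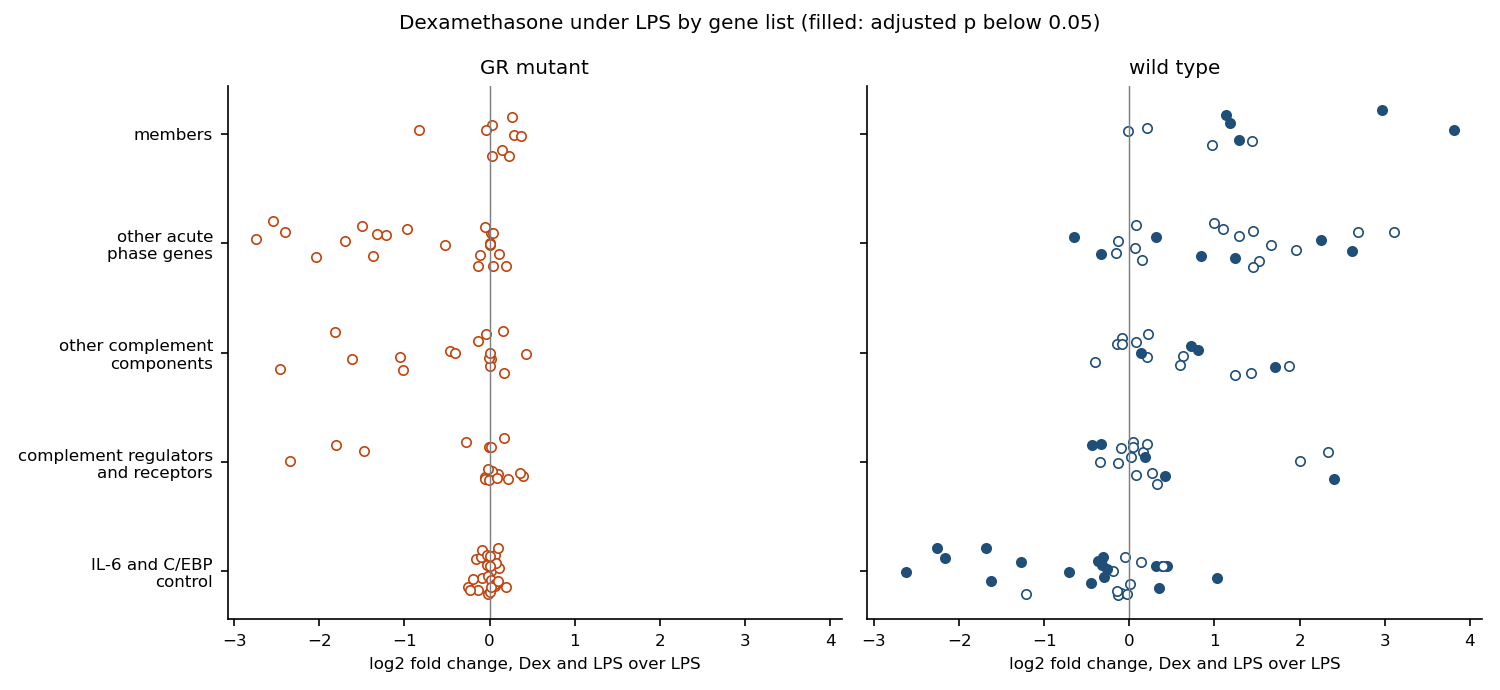
Log2 fold change of Dex with LPS over LPS (horizontal axes) for each tested gene of the members and of 4 lists (rows), in mutant (left) and wild-type (right) cells; filled circles were called, and the vertical scatter within a row has no meaning. In wild type 5 of 9 members were called higher and 13 of 28 control genes lower, and in the mutant no gene drawn was called.

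Patterns over the 24 libraries were compared by Pearson's r of log2 CPM, as a description, since the libraries share treatments. The gene most like Serpina3n was Ezr (r = 0.98), at 105 CPM with Dex and LPS, 72.8 CPM with Dex and 40.1 CPM in vehicle in wild-type cells. The gene most like Saa3 was Serpina3g (r = 0.99), and that most like Steap4 was the chemokine gene Ccl20 (r = 0.99). Lcn2 was most like Snx18 (r = 0.98), Cp most like Dstn (r = 0.99), Ptx3 most like Igsf6 (r = 0.98), C3 most like Casp8 (r = 0.93) and Serping1 most like Atf3 (r = 0.95). C4b was most like Hc, the gene of complement C5 (r = 0.87).

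The authors' deposited table lists 8 of the 10 members, without C4b and Cfb. For Dex under LPS in wild type the authors' deposited table gives log2 fold changes of 3.81 for Serpina3n, 2.96 for Lcn2, 1.29 for Ptx3, 1.18 for Saa3 and 1.13 for Cp, with adjusted p of 1.23e-09 or lower for Cp and the other 4. For Dex in wild type the authors' deposited table gives an adjusted p of 0.0908 for C3 and 0.113 for Saa3.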

How the data were processed

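RNA of 24 MEF libraries was sequenced after a stranded mRNA preparation, per the labels' protocols. The authors deposited raw read counts per gene for each library, which are in the form STAR writes; STAR 2.4.2 and 2.4.2a, FastQC, DESeq and DESeq2 are named in the submitters' processing notes. The authors also deposited tables of log2 fold changes with p-values and adjusted p-values, and what was done to make them beyond those tool names is not given in the sources used here. Another 96 columns of per-sample values in them were not used.

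Counts of the strand the kit reports were fitted with edgeR 4.0.16 in R 4.3.3 (quasi-likelihood, robust, TMM, prior count 0.125), with 1 coefficient per group over all 24 libraries. Genes with low counts were removed by filterByExpr, and p-values were adjusted by Benjamini-Hochberg over the 15221 genes left. Adjusted p in the report come from edgeR, or from the tool the sentence names. DESeq2 1.42.0 was an alternative, and the fit was tested on simulated data. Same-numbered replicates were checked for pairing. All members, paralogs, Nr3c1 and Alb could be named, with at most 4 called genes per list and comparison by size of change, and the 3 genes most like each member. The members and lists were chosen with earlier results of these data known. Coordinates are GRCm38.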

Additional observations from a re-analysis of the deposited data

Results flagged for a closer look

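The effect of Dex differed between GR mutant and wild type for 8 pairs of gene and condition, by a direct test of the difference in edgeR. Of 9 tested members, 3 were called lower without LPS, where 4.4% of all genes were, and 5 under LPS, where 5.03% were. The members were chosen with earlier results of these data known. Without LPS the difference, mutant minus wild type on the log2 scale, was -3.36 for Serpina3n, -1.60 for Cp and -1.06 for Ptx3. Under LPS it was -3.56 for Serpina3n, -2.68 for Lcn2, -1.26 for Ptx3, -1.10 for Cp and -0.95 for Saa3. In each case Dex raised the gene in wild type and no change was called in the mutant.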

How the results depend on the processing

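Of 34 called member values, 591 of 592 alternative values kept direction and call, 1 was no longer called and 0 reversed. The exception was the LPS effect on C3 in the mutant fitted with only the compared libraries (log2 2.07, adjusted p = 0.0763). Of 281 alternative values of 15 uncalled member values at an unadjusted p below 0.05, 21 passed the threshold. C4b for Dex and for LPS in wild type lay above that p and is not among them. Members called for the genotype difference of the LPS effect numbered 2 without the 5 libraries that stood apart, 2 without the 3 later library numbers, and 0 to 1 with 1 library left out, against 0. For the interaction the count was 1 without the 3 later library numbers and 1 with only the compared libraries, against 0. Over all genes, leaving out the 5 libraries gave 4330 calls for Dex in wild type, 5 for Dex in the mutant, 6676 for LPS in wild type, 160 for Dex under LPS in the mutant, 2191, 405 and 2971 for the genotype differences of Dex, LPS and Dex under LPS, 781 for the interaction and 4620 in vehicle. The main counts in that order were 2003, 0, 4020, 1, 1064, 82, 1581, 238 and 2861. Without the 3 later libraries there were 1 for Dex in the mutant, 5052 for Dex under LPS in wild type (main 3198), 0 for it in the mutant and 387 for the interaction. With only the compared libraries there were 4659 for Dex in wild type, 6847 for LPS in wild type, 1544 and 0 for Dex under LPS in wild type and mutant, and 1659, 146 and 1042 for the 3 genotype differences. DESeq2 called 3 for Dex in the mutant, 28 for Dex under LPS in the mutant and 140 for the genotype difference of LPS. With Alb as a covariate the last was 133, and Dex under LPS in the mutant gave 0, against 6 with no filter. With 1 library left out, Dex under LPS in the mutant gave 0 to 27 and the genotype difference of LPS 34 to 79. The cause was not tested. The replicate block gave 12 calls for Dex under LPS in the mutant and 3 members in vehicle, with Serping1 added (adjusted p = 0.0383). Serping1 in vehicle was also called with DESeq2 size factors (0.0472), unstranded counts (0.0465), Alb as a covariate (0.0426), and without mutant vehicle replicate 2 (0.0432) or 3 (0.0381), all adjusted p. Same-numbered libraries did not deviate together (17 of 84 pairs above r = 0.1), so the numbers were not taken as pairs. Prior count 2 was chosen after seeing the data. C4b and Cfb were low in level. C4b levels spread up to 21.3-fold within a group, and Cfb did not pass the filter on low counts.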
